A study of Mus musculus with 40 samples.

Results

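The 10 genes described here belong to the fibroblast growth factor (FGF) and platelet-derived growth factor (PDGF) systems and were measured in cultured mouse cardiac fibroblasts. They were 4 receptors (Fgfr1, Fgfr2, Pdgfra and Pdgfrb), 3 FGF ligands (Fgf2, Fgf7 and Fgf10) and 3 PDGF ligands (Pdgfa, Pdgfb and Pdgfc). The genes were taken by name and are 10 of the 55414 genes in the count table and 10 of the 25210 genes that had enough reads to be tested.

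The cells were passage 1 fibroblasts from hearts of TAK1fl/fl mice on a C57BL/6J background, in which exon 2 of Map3k7, the gene of the kinase TAK1, lies between loxP sites. All cultures carried an adenovirus with a CMV promoter, which drove either LacZ (control) or codon-improved Cre recombinase (iCre), so no untransduced cells were compared. Serum-starved cells were then kept for 24 h without ligand (CTRL) or with 1 of 4. These were basic FGF (bFGF) at 20 ng/ml, TNFα and TGFβ, both at 10 ng/ml, and IL-1β at 15 ng/ml. Each of the 10 combinations of virus and ligand had 4 RNA libraries, numbered 1 to 4, which makes 40 libraries. The growth medium before starvation held serum, insulin-transferrin-selenium and human bFGF at 20 ng/ml in all 10 groups, so the CTRL cells had also met bFGF earlier. The study describes the replicates of each group as biological and from male mice. Whether libraries of the same number share a mouse, and whether hearts were pooled, is not given in the sources used here.

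Fibroblast growth factors act on receptor tyrosine kinases of the FGFR family, with heparan sulfate chains as co-receptors, and signal through the RAS, ERK and PI3K pathways. Fgf2 encodes bFGF itself, which binds FGFR1 among other receptors, while Fgf7 and Fgf10 encode ligands that mesenchymal cells release and that act mainly on an epithelial splice form of FGFR2. PDGF chains pair into dimers that join receptor chains: PDGF-A and PDGF-C act chiefly on PDGFRα, PDGF-D on PDGFRβ, and PDGF-B on both. In the heart PDGFRα marks resident fibroblasts, and PDGFRβ marks pericytes and smooth muscle cells as well as activated fibroblasts. Both receptors are known for their parts in fibroblast growth and in fibrosis.

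Pdgfc, Pdgfra and Fgf7 changed with TGFβ in both kinds of culture. The 250 bases before their RefSeq transcript starts (GRCm38.p6, plus strand) are shown as the promoter-proximal sequence of the ligand that rose most in LacZ cells and of a receptor and a ligand that fell, and these 3 were chosen after their values were seen. The windows are chr3:81036166-81036415 for Pdgfc, chr5:75152001-75152250 for Pdgfra and chr2:126034408-126034657 for Fgf7. Capitals mark matches on either strand to a SMAD box, CAGAC, or a TEAD box, GGAATG.
Pdgfc: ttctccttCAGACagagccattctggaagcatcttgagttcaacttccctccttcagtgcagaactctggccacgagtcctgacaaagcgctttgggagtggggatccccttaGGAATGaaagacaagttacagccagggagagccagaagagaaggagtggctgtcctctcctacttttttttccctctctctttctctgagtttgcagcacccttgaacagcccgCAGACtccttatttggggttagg
Pdgfra: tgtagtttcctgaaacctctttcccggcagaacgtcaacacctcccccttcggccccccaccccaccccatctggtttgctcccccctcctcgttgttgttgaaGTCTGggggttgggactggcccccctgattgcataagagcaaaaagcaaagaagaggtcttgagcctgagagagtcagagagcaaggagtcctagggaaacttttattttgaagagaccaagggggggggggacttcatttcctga
Fgf7: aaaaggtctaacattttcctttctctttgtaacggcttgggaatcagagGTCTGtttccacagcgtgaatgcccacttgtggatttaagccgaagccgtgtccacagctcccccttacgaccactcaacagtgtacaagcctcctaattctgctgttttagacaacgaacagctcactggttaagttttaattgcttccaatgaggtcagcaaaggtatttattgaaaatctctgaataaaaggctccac
The Pdgfc window held 2 SMAD boxes, which began 242 and 23 bases before the start, and 1 TEAD box 137 bases before it. The Pdgfra and Fgf7 windows each held 1 SMAD box, 146 and 201 bases before the start. Of all 32851 promoter windows of this length, 42.2% held a SMAD box and 12.6% a TEAD box on either strand. Searches for an Sp1 box (GGGCGG), an AP-1 site (TGANTCA) and a TATA box (TATAAA) found none in these 3 windows, against 32.7%, 6.75% and 12.4% of all windows. No matches overlapped, and a match in these letters is a description only. RefSeq windows were matched for 7 of the 10 genes. None was matched for Fgfr1, Pdgfb or Pdgfrb.

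Library depth ran from 25360947 to 66160732 counts. Map3k7 was lower with iCre in each of the 5 treatments, with no overlap between libraries, at 122 to 160.2 CPM (counts scaled to a common library size) against 144 to 251 CPM with LacZ. In LacZ cells its mean was 153 CPM in CTRL and 199 to 239 CPM with a ligand (log2 0.39 to 0.64, each passing the test). The iCre means were 126 to 150 CPM, so the wider gap with a ligand went with higher LacZ levels. The difference between iCre and LacZ passed the test with TGFβ, IL-1β and TNFα (log2 -0.67 to -0.82) but not in CTRL (-0.28, adjusted p = 0.137) or with bFGF (-0.40, adjusted p = 0.351). With libraries compared within their replicate number (the block described below), it passed in both (-0.28 and -0.40, adjusted p = 0.00393 and 0.000409). Counts over the whole gene show the loss of 1 exon only in part. The 10 fibroblast markers summed to 14631 to 68640 CPM, much of it collagen mRNA. Of these, Vim, Ddr2 and Thy1 were at 299 CPM or more in every library, while Tcf21 (3.14 to 103 CPM) and Postn (15.8 to 3643 CPM) were lowest in replicate 2 of iCre TNFα. The sums for endothelial cells (4.87 to 27.1 CPM over 7 genes), macrophages and other leukocytes (19.4 to 175 CPM over 7 genes) and mesothelium (1.82 to 10.9 CPM over 4 genes) were low. The 8 mural cell markers summed to 158 to 2068 CPM, the 2 tested cardiomyocyte markers to 0.326 to 110.3 CPM, and those of Schwann cells (3) and platelets (2) to at most 16.8 and 17.5 CPM.

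Libraries numbered 2 stood apart for several of the 10 genes, in both viruses and with every ligand. Fgf10, Fgf7 and Pdgfra were highest in replicate 2 in 10 of 10 groups, and Pdgfa was lowest there in 9 of 10. For Fgf10 the replicate 2 value was 3.53 to 12.04 times the median of the other 3 libraries of its group, for Fgf7 1.52 to 4.05 times and for Pdgfra 1.18 to 3.06 times. The summed mural markers were also lowest in replicate 2 in 10 of 10 groups (158 to 865 CPM, against 278 to 2068 CPM in the others), as were those of cardiomyocytes and platelets. The sums for Schwann cells (9 of 10), macrophages and other leukocytes (7 of 10) and fibroblasts (6 of 10) were often lowest there, and that for endothelial cells was highest there in 7 of 10. Much of the mural sum was Rgs5, and the part of cell makeup in these values was not tested. Because libraries of the same number deviated together across genes, each comparison was also fitted with the replicate number as a block, which compares libraries within a number. Blocked results are given where they change a call. A gene was called where the adjusted p of edgeR's quasi-likelihood test (Benjamini-Hochberg over all tested genes) was at most 0.05.

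**Figure D1:**
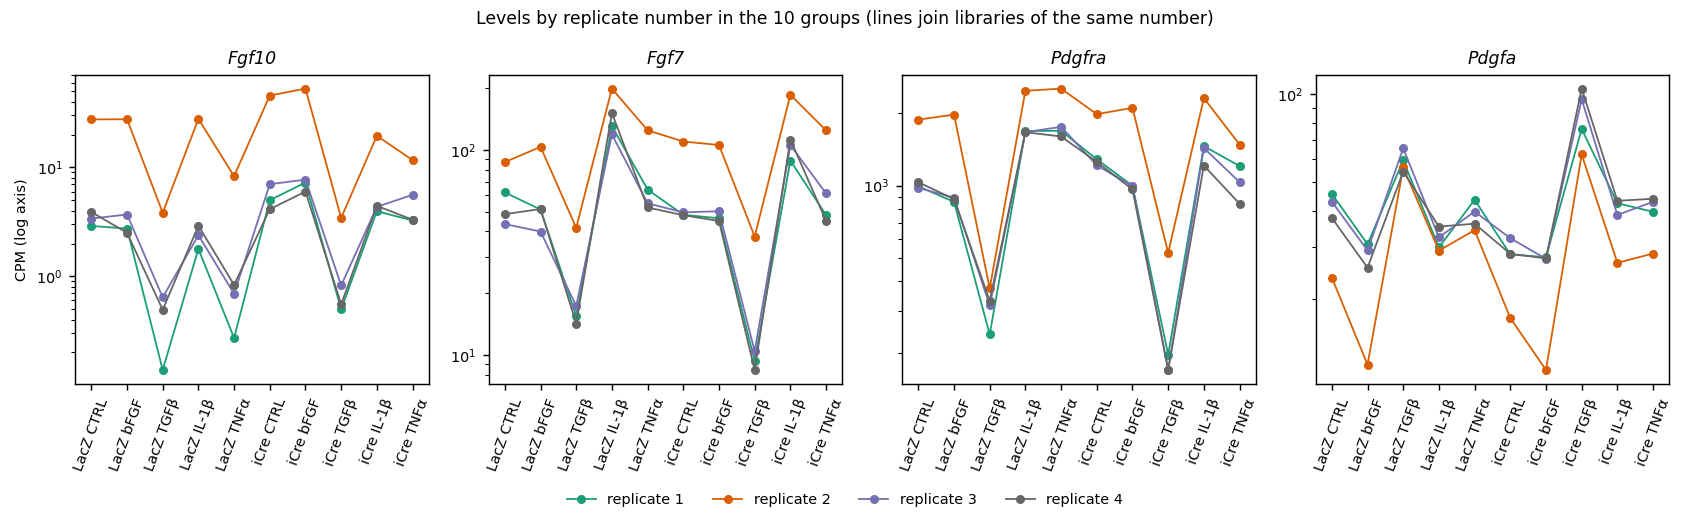
CPM of Fgf10, Fgf7, Pdgfra and Pdgfa in the 40 libraries on log axes, one panel a gene, with the 10 groups of virus and ligand along the x axis and lines joining libraries of the same replicate number. Replicate 2 is the highest of the 4 in every group for Fgf10, Fgf7 and Pdgfra and the lowest in 9 of 10 for Pdgfa, while the lines run alike from group to group.

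In LacZ fibroblasts without ligand 3 of the 4 receptors were more abundant than all of the ligands, and Fgfr2 was below 3 of them. Levels between genes are compared as CPM per kb of exon, the union of a gene's annotated exons. Pdgfra was first at 122 ± 44.1 CPM per kb (mean ± SD, n = 4 libraries here and below) and Pdgfrb second at 90.3 ± 17.2, with overlapping libraries. Fgfr1 followed at 46.1 ± 4.64 and lay apart from the genes above and below it. Fgf2 (24.9 ± 5.43), Fgf7 (18.6 ± 6.02) and Pdgfa (12.03 ± 3.15) came next, and each overlapped its neighbour. The last 4 were Fgfr2 (3.60 ± 0.187), Fgf10 (2.05 ± 2.63), Pdgfc (1.25 ± 0.359) and Pdgfb (0.119 ± 0.0608). Among these, Fgf10 overlapped both Fgfr2 and Pdgfc because of replicate 2, and Pdgfb lay apart below. Per kb of the longest transcript instead, this order was the same in LacZ CTRL, while 3 to 6 of the 10 places differed in the other groups.

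**Figure D2:**
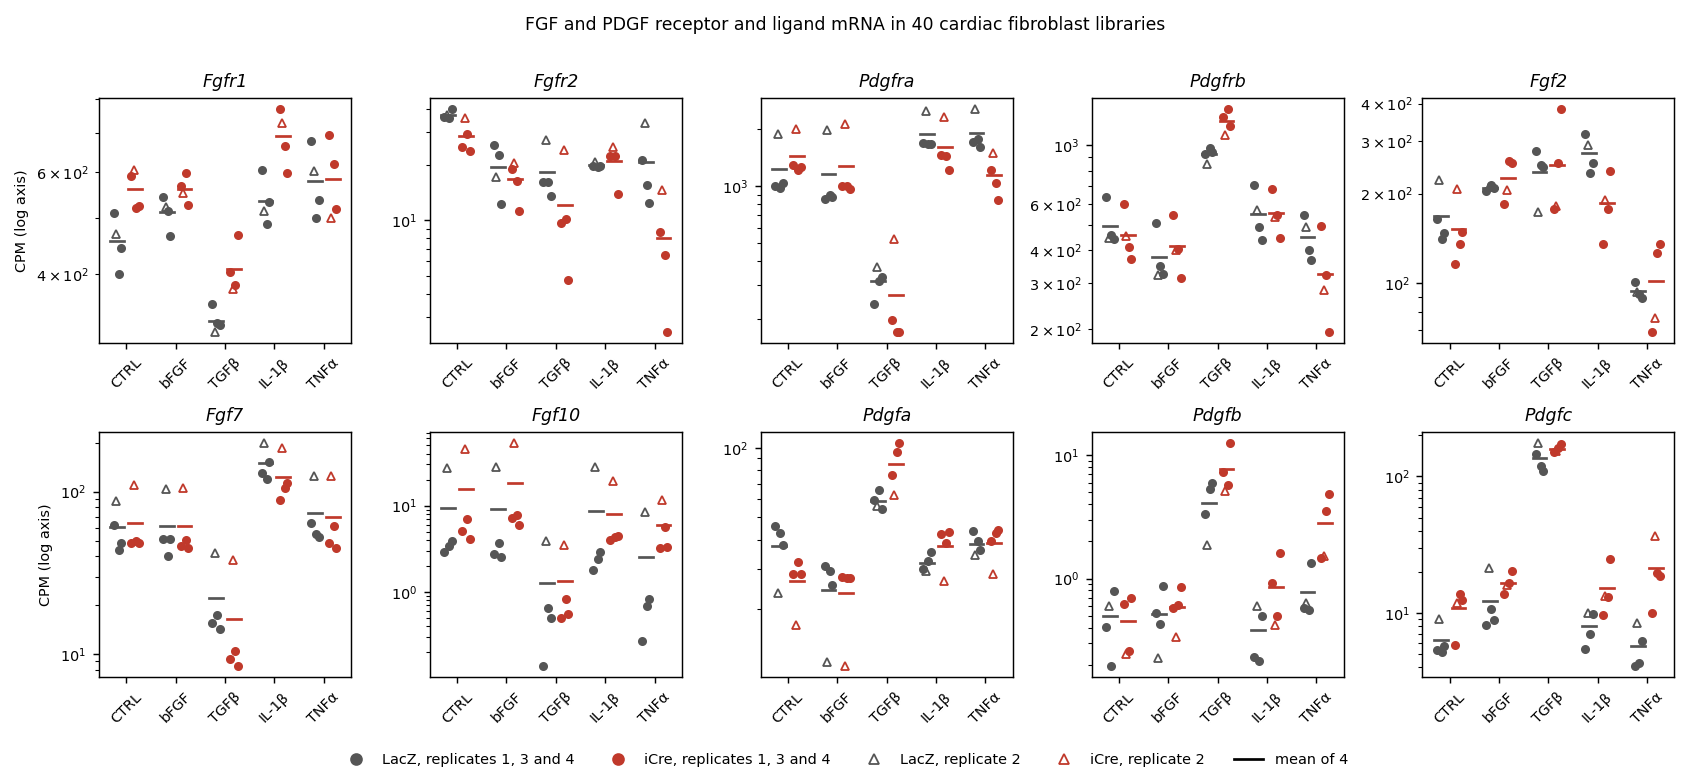
CPM of the 10 genes on log axes, one panel a gene, by ligand along the x axis, with LacZ libraries in grey and iCre libraries in red, replicate 2 as open triangles and the mean of 4 as a bar. Pdgfc rises from 5.15 to 9.05 CPM in LacZ CTRL to 109.7 to 175 CPM with TGFβ, and Pdgfra falls from 978 to 1884 CPM to 239.8 to 373 CPM.

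More of the 10 genes were called with TGFβ than with the other 3 ligands, by a margin that was narrower once libraries were compared within their replicate number. In LacZ fibroblasts TGFβ against CTRL called 9 of 10 (5 higher, 4 lower), where 36.9% of all tested genes were called (17.5% higher, 19.3% lower), and 10 of 10 with the block, where 42% were called. IL-1β called 3 (2 higher, 1 lower), against a background of 20.7% (11.1% and 9.55%), and 6 with the block (33.5%). TNFα called 2, both lower (background 21.3%, of which lower 10.4%), and 6 with the block (35.5%). bFGF called 1, lower (background 11.6%, of which lower 4.64%), and 5 with the block (27.3%). The median log2 fold change over the 10 genes was 0.04 with TGFβ, 0.20 with IL-1β, -0.05 with TNFα and 0.03 with bFGF.

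In iCre fibroblasts the counts depended on the block for every ligand but TGFβ. TGFβ called all 10 genes (5 higher, 5 lower, background 37.4%, with 18.6% higher and 18.8% lower), and the same count with the block (41.5%). TNFα called 2, 1 in each direction (background 27%, with 14.7% higher and 12.3% lower), and 8 with the block (36.1%). For IL-1β the main edgeR fit (compared groups only, no block) called none of the 10 (background 16.3%), and the block called 9 (33.8%). At an unadjusted p under 0.05 there were 4, beside 7191 of all 25210 genes, and DESeq2 called 2, beside 5512 of 18006. For bFGF the main fit likewise called none (background 2.42%), and the block called 4 (16.7%). At an unadjusted p under 0.05 there were 3, beside 4213 of all 25210 genes, and DESeq2 called 1, beside 1998 of 17007. The 4 ligand comparisons of each virus share that virus's CTRL libraries.

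Further ligand responses were called with the block but not without it in the main edgeR fit. In iCre cells with IL-1β these included Pdgfa (log2 0.53, adjusted p = 3.81e-09), Pdgfc (0.47, adjusted p = 7.44e-05) and Pdgfb (0.89, adjusted p = 0.0275) as higher and Fgf10 (-0.60, adjusted p = 3.67e-06) as lower. With a GC offset as well, the Pdgfa and Pdgfc values were still called (adjusted p = 0.000452 and 0.0387), and those of Pdgfb and Fgf10 were not (0.105 and 0.166). In iCre cells with TNFα, Pdgfa (0.60, adjusted p = 0.000309) and Pdgfc (0.92, adjusted p = 0.00202) were higher, also with the GC offset and by DESeq2 without a block (adjusted p = 0.0402 and 0.036), and Fgf10 was lower (-0.82, adjusted p = 0.0329, and 0.195 with the GC offset). Fgf10 was higher with bFGF in iCre cells (0.35, adjusted p = 0.0367, and 0.122 with the GC offset). Pdgfc was higher with IL-1β in LacZ cells (0.36, adjusted p = 0.0299). The others are given with each gene. Without a block, 1 fit of all 40 libraries called 4 of the 10 in iCre cells with TNFα (2 higher, 2 lower) and 1 with IL-1β (higher). Over all 25210 genes that fit called 8035 and 4881.

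**Figure D3:**
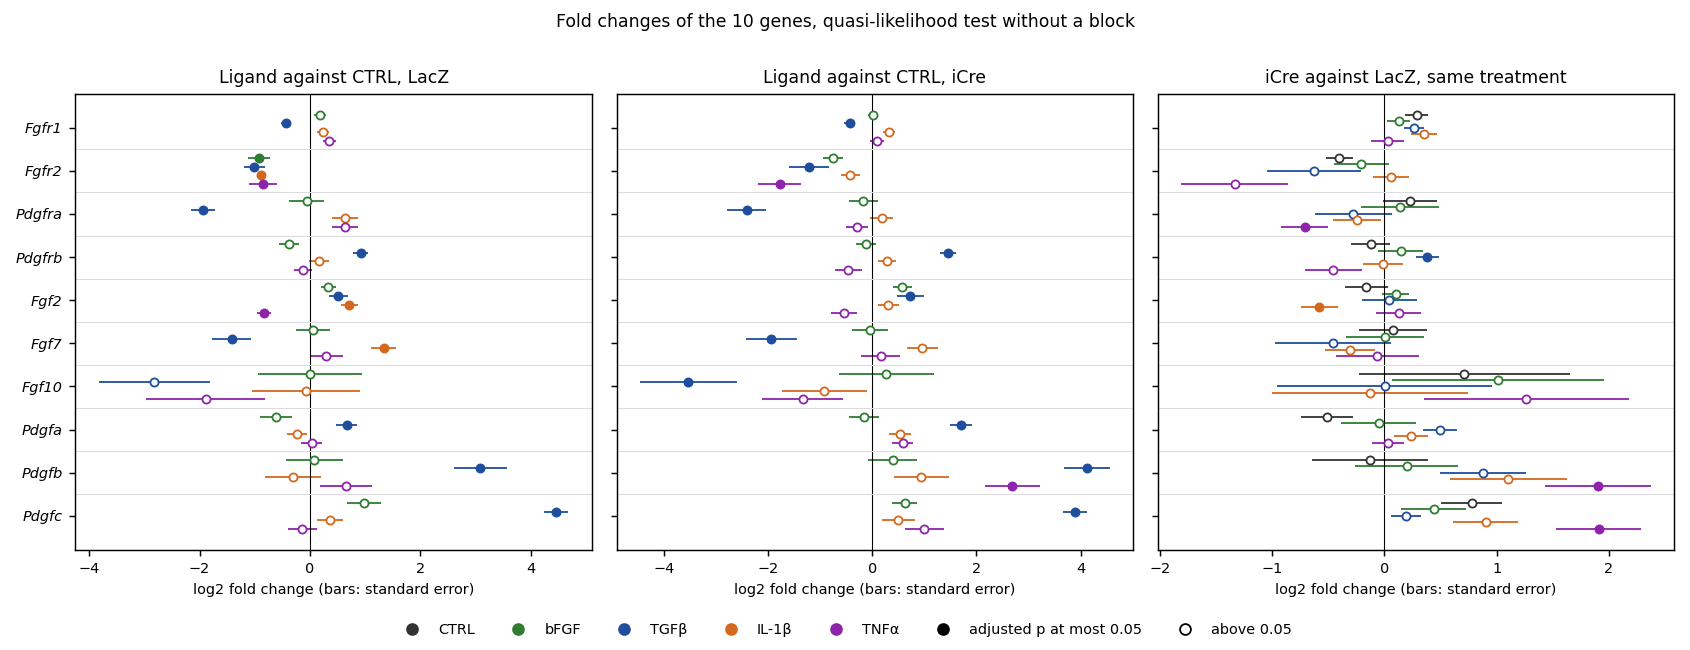
Log2 fold changes of the 10 genes with their standard errors, for each ligand against CTRL in LacZ cells (left) and iCre cells (middle) and for iCre against LacZ within each treatment (right), from the fit without a block. Filled points have an adjusted p of at most 0.05. The lowest and the highest point of the ligand panels are both TGFβ points, at -3.54 for Fgf10 in iCre cells and 4.46 for Pdgfc in LacZ cells.

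The 2 PDGF receptors moved in opposite directions with TGFβ. Pdgfra, the receptor chain of resident fibroblasts, was at 993, 1884, 978 and 1033 CPM in the 4 LacZ CTRL libraries and at 239.8, 373, 317 and 331 CPM with TGFβ. All TGFβ libraries lay below all CTRL libraries, a 3.82-fold fall (log2 -1.93 ± 0.22, SE here and below, adjusted p = 8.36e-05). In iCre cells it went from 1287, 1985, 1215 and 1256 CPM to 198, 525, 171 and 171 CPM. That was a 5.33-fold fall (log2 -2.41 ± 0.37, adjusted p = 0.000461), again without overlap. Without replicate 2 the falls were log2 -1.76 in LacZ and -2.78 in iCre cells. Fibroblast markers went both ways in the same comparison. In LacZ cells 3 of the 10 fell (Lum, log2 -1.93, Dcn, -1.09, and Ddr2, -0.42) and 3 rose (Col1a1, 2.15, Postn, 2.12, and Col1a2, 1.19), and in iCre cells 3 fell and 4 rose. With the block 4 fell and 3 rose in LacZ cells, and 5 fell and 4 rose in iCre cells. The part of cell makeup in the Pdgfra value was not tested.

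Pdgfrb, the receptor chain of mural cells and activated fibroblasts, rose instead. Its LacZ libraries stood at 635, 445, 457 and 441 CPM in CTRL and at 932, 851, 974 and 948 CPM with TGFβ, a 1.89-fold rise (log2 0.92 ± 0.14, adjusted p = 0.000462). In iCre cells CTRL was at 597, 454, 412 and 369 CPM and TGFβ at 1279.85, 1093, 1375 and 1185 CPM, a 2.73-fold rise (log2 1.45 ± 0.15, adjusted p = 4e-05). The groups did not overlap in either virus. The summed mural markers were also higher with TGFβ, at 791 to 1338 CPM against 215 to 753 CPM in LacZ cells, but single markers went both ways. Of the 8, 2 rose and 3 fell in LacZ cells (3 and 4 with the block). Cspg4 rose from a mean of 18.8 to 254 CPM and Mcam from 16.6 to 49.8 CPM, and Kcnj8, Abcc9 and Notch3 fell. Rgs5, at 81.5 to 532 CPM in CTRL and 386 to 934 CPM with TGFβ, was not called (log2 1.04, adjusted p = 0.12) but was with the block (1.25, adjusted p = 0.000663). In iCre cells the mural sums overlapped, at 865 to 2068 CPM with TGFβ against 374 to 1023 CPM in CTRL, with 2 of the 8 markers higher and 2 lower (3 and 3 with the block). The part of mural cells in the Pdgfrb value was not tested, and in bulk RNA fewer cells of a type and less RNA per cell cannot be told apart.

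The balance of the receptor mRNAs also reversed. The ratio of Pdgfra to Pdgfrb per kb was 0.855, 2.31, 1.17 and 1.28 in LacZ CTRL and 0.141, 0.240, 0.178 and 0.191 with TGFβ. Pdgfra thus went from the more abundant chain in 3 of 4 libraries to the less abundant in 4 of 4. In iCre cells the ratio was 1.18 to 2.39 in CTRL and 0.0678 to 0.262 with TGFβ. With bFGF, IL-1β and TNFα it was between 0.922 and 3.36 over both viruses, and replicate 2 was the highest of its group in each of the 10 groups.

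**Figure D4:**
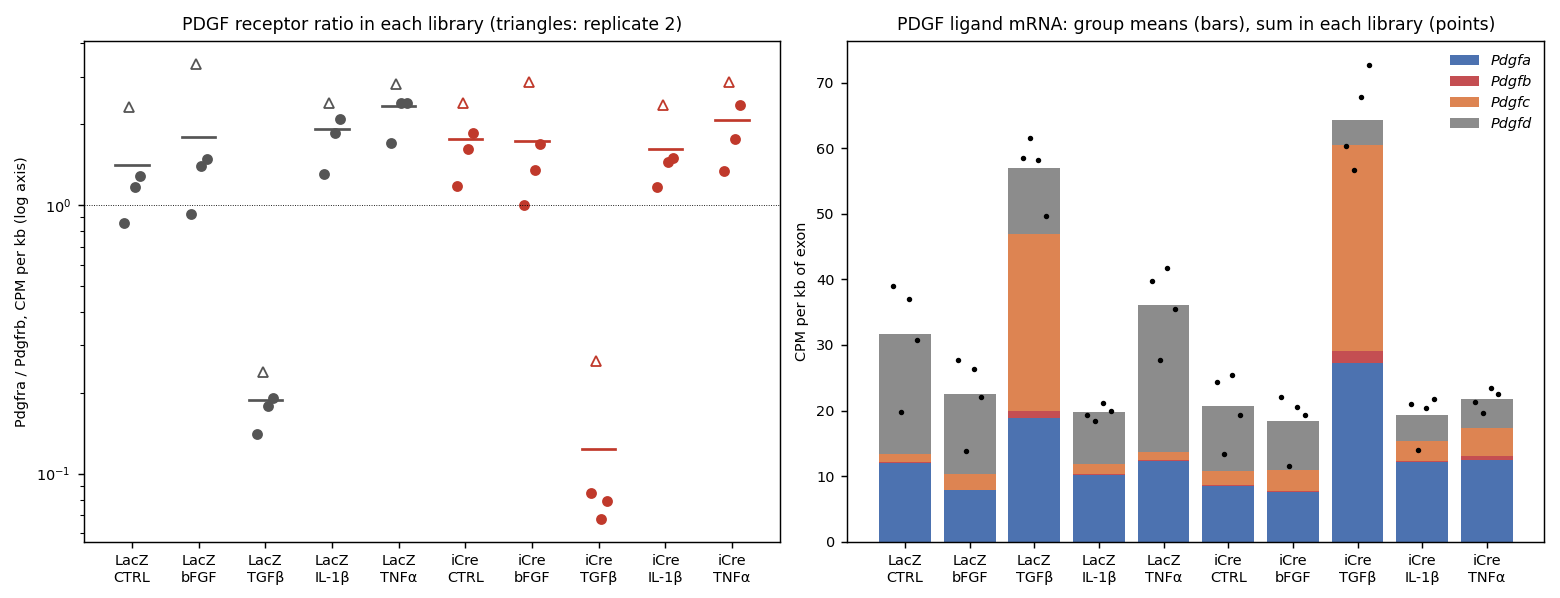
Left, the ratio of Pdgfra to Pdgfrb in CPM per kb in each library on a log axis, with group means as bars and replicate 2 as triangles. Right, PDGF ligand mRNA in CPM per kb, with stacked group means of Pdgfa, Pdgfb, Pdgfc and Pdgfd and points for the sum in each library. The TGFβ groups have the lowest ratios (0.0678 to 0.262) and the highest ligand sums (49.6 to 72.7).

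The inflammatory cytokines left the PDGF receptors nearer to CTRL. In LacZ cells Pdgfra stood at 1689, 2483, 1671 and 1669 CPM with IL-1β and at 1693, 2537, 1757 and 1602 CPM with TNFα. Each number was above its own CTRL library in 4 of 4, but the groups overlapped through replicate 2 (log2 0.64 ± 0.23 in both, adjusted p = 0.0783 and 0.0821). With the block both passed (log2 0.67 each, adjusted p = 1.26e-07 and 5.46e-08), as they did without replicate 2 (log2 0.74 each). In iCre cells IL-1β gave log2 0.18 (adjusted p = 0.655) and TNFα -0.30 (adjusted p = 0.341), the latter called lower with the block (adjusted p = 0.0248). Pdgfrb was called with none of these 3 ligands without a block. With it, Pdgfrb was lower with bFGF in LacZ cells (log2 -0.39, adjusted p = 0.000385), higher with IL-1β in iCre cells (0.29, adjusted p = 0.000339, but 0.08 and not called after a GC correction) and lower with TNFα in iCre cells (-0.52, adjusted p = 0.00358).

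Of the FGF receptors, Fgfr2 fell with every ligand in LacZ cells, the one gene of the 10 to be called in all 4 comparisons. It was at 35.9, 37.1, 35.6 and 39.9 CPM in CTRL. The highest library of any LacZ group with a ligand was 33.6 CPM, so all 4 groups lay below CTRL. The fall was 2.01-fold with TGFβ (log2 -1.005 ± 0.19, adjusted p = 0.00209), 1.86-fold with IL-1β (-0.89 ± 0.08, adjusted p = 4.68e-05), 1.80-fold with TNFα (-0.85 ± 0.26, adjusted p = 0.0425) and 1.90-fold with bFGF (-0.92 ± 0.19, adjusted p = 0.0147). The IL-1β libraries were tight, at 19.5 to 20.5 CPM, and the TNFα libraries wide, at 12.4 to 33.6 CPM. The TNFα call was lost without replicate 1, 3 or 4 (adjusted p = 0.13, 0.189 and 0.168), and the bFGF call without replicate 3 or 4 (0.0847 and 0.056). In 1 fit of all 40 libraries, which share an estimate of the spread, Fgfr2 was called with TGFβ but not with bFGF, IL-1β or TNFα (log2 -0.94, -0.90 and -0.85, adjusted p = 0.078, 0.0771 and 0.102). These 4 comparisons share 1 CTRL group.

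In iCre cells Fgfr2 stood at 24.9, 35.6, 29.3 and 23.6 CPM in CTRL. TNFα brought it to 8.62, 14.5, 6.52 and 2.497 CPM, a 3.44-fold fall (log2 -1.78 ± 0.41, adjusted p = 0.01), which missed the threshold without replicate 3 (-1.68, adjusted p = 0.0783). TGFβ brought it to 9.69, 23.9, 10.1 and 4.73 CPM, a 2.32-fold fall with overlap (log2 -1.21 ± 0.39, adjusted p = 0.0309), which missed the threshold without replicate 1, 3 or 4 (adjusted p = 0.108, 0.138 and 0.0537). The falls with bFGF (-0.75, adjusted p = 0.079) and IL-1β (-0.42, adjusted p = 0.163) were called with the block (adjusted p = 8.5e-05 and 5.29e-06).

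Fgfr1, more abundant than Fgfr2 in these cells, changed little. Per kb it was 11.6 to 14.8 times Fgfr2 in LacZ CTRL and above it in all 40 libraries. TGFβ lowered it 1.35-fold in LacZ cells (from 401 to 509.9 CPM to 319 to 356 CPM, log2 -0.43 ± 0.10, adjusted p = 0.00608) and 1.36-fold in iCre cells (log2 -0.44 ± 0.10, adjusted p = 0.00631), without overlap in either. With IL-1β and TNFα its log2 changes lay between 0.09 and 0.35 and none was called. With the block, 3 of those 4 were called higher, all but TNFα in iCre cells (adjusted p = 0.581), and the IL-1β value in iCre cells was 0.10 and not called with a GC offset as well.

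Among the FGF ligands, Fgf2 and Fgf7 parted with TGFβ. Fgf7, a ligand that mesenchymal cells release, fell from 62.0, 87.2, 43.5 and 48.6 CPM to 15.5, 41.7, 17.3 and 14.2 CPM in LacZ cells. The groups did not overlap, since even the high replicate 2 library with TGFβ was below the lowest CTRL library. The fall was 2.68-fold (log2 -1.42 ± 0.35, adjusted p = 0.0086) and missed the threshold without replicate 1 (-1.26, adjusted p = 0.0585). In iCre cells it was 3.84-fold (log2 -1.94 ± 0.50, adjusted p = 0.0104), from 48.0 to 109.8 CPM to 8.44 to 37.8 CPM. That value was -1.14 with an offset for GC content (adjusted p = 0.0845). Fgf2, which encodes bFGF, was 1.42-fold higher in LacZ cells (log2 0.51 ± 0.17, adjusted p = 0.0393) and 1.66-fold higher in iCre cells (0.73 ± 0.26, adjusted p = 0.045). Its groups overlapped, since replicate 2 with TGFβ in LacZ cells (173 CPM) and replicates 1 and 2 in iCre cells (177 and 181 CPM) lay within the CTRL range, and both calls were lost without replicate 1, 3 or 4 (adjusted p = 0.0645 to 0.206).

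IL-1β raised both ligands in LacZ cells. Fgf7 was at 131, 199, 119 and 151 CPM, above all CTRL libraries, a 2.52-fold rise (log2 1.33 ± 0.22, adjusted p = 0.00222). Fgf2 was at 317, 291, 234 and 254 CPM against 165, 222, 141 and 148 CPM in CTRL, a 1.64-fold rise (log2 0.72 ± 0.15, adjusted p = 0.00758) that missed the threshold without replicate 1 or 4 (adjusted p = 0.0557 and 0.0531). In iCre cells Fgf7 stood at 88.7 to 186 CPM with IL-1β and 48.0 to 109.8 CPM in CTRL, with each number higher in 4 of 4 (log2 0.96 ± 0.31, adjusted p = 0.0603). This was called with the block (1.00, adjusted p = 1.62e-26), without replicate 2 (1.09, adjusted p = 0.000114) and with the GC offset (1.70, adjusted p = 0.00811). Fgf2 in the same comparison was at log2 0.30 (adjusted p = 0.354), called with the block (adjusted p = 0.000299).

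TNFα lowered Fgf2 in LacZ cells, to 101, 93.4, 92.5 and 89.7 CPM. These 4 close values all lay below CTRL, a 1.79-fold fall (log2 -0.84 ± 0.13, adjusted p = 0.00161). In iCre cells the TNFα libraries spread from 68.9 to 135 CPM (log2 -0.55, adjusted p = 0.138). The block called that value (-0.57, adjusted p = 0.0419), but not with a GC offset as well (-0.30, adjusted p = 0.294). Fgf7 with TNFα was not called in either virus (log2 0.30 and 0.16), though the block called the LacZ value (0.26, adjusted p = 0.0115). Cells given bFGF had Fgf2 at 204 to 213 CPM in LacZ and 184 to 257 CPM in iCre cells (log2 0.33 and 0.58, adjusted p = 0.149 and 0.142). The block called both as higher (adjusted p = 0.00801 and 0.00164).

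Fgf10, a relative of Fgf7 with the same receptor, was at most 7.72 CPM in all libraries not numbered 2. In LacZ CTRL it was at 2.90, 27.6, 3.39 and 3.89 CPM, and with TGFβ at 0.138, 3.83, 0.641 and 0.492 CPM, the lowest of these being 5 reads. Each number fell, but replicate 2 with TGFβ stayed inside the CTRL range, and the 7.05-fold fall was at the threshold (log2 -2.82 ± 1.01, adjusted p = 0.0503). With the block it passed (-2.95 ± 0.24, adjusted p = 4.87e-06), as it did without replicate 2 (-3.00, adjusted p = 0.000167). In iCre cells the fall was 11.6-fold (log2 -3.54 ± 0.93, adjusted p = 0.0115), from 5.01, 45.8, 7.02 and 4.14 CPM to 0.496, 3.44, 0.824 and 0.553 CPM. DESeq2 gave no adjusted p for that value. TNFα in LacZ cells took it to 0.271, 8.32, 0.691 and 0.833 CPM (log2 -1.89, adjusted p = 0.26), which the block called (-2.14, adjusted p = 1.88e-08).

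The summed mRNA of the 3 FGF ligands was nearly level between LacZ CTRL and TGFβ, at 45.5 ± 13.9 and 42.0 ± 2.85 CPM per kb, while its makeup shifted. Fgf2 was 49.9 to 59.6% of it in CTRL and 65.2 to 89.6% with TGFβ, with replicate 2 the lowest in both. Fgf7 was 38.3 to 43.4% in CTRL and 10.4 to 32.7% with TGFβ. With IL-1β the sum was 71.7 to 110.2 CPM per kb, all above the CTRL range of 34.9 to 65.6.

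The PDGF ligands gave the largest rises of the set. Pdgfc, a PDGFRα ligand that is secreted in latent form and cut by proteases, was at 5.38, 9.05, 5.15 and 5.78 CPM in LacZ CTRL and at 145, 175, 119.7 and 109.7 CPM with TGFβ. This was a 22.0-fold rise (log2 4.46 ± 0.22, adjusted p = 1.07e-06), and all TGFβ libraries lay above all CTRL libraries. In iCre cells it rose 14.85-fold (log2 3.89 ± 0.23, adjusted p = 1.34e-06), from 5.79, 11.8, 13.7 and 12.4 CPM to 151, 153, 163 and 174 CPM. The alternatives kept both calls, with values of 4.36 to 4.55 in LacZ and 3.72 to 4.01 in iCre cells. With bFGF Pdgfc was at 8.22, 21.3, 10.7 and 8.85 CPM in LacZ cells, higher in 4 of 4 numbers but overlapping CTRL through its replicate 2 (log2 0.98, adjusted p = 0.0762). The block called this value (0.91, adjusted p = 7.96e-05), and that of iCre cells (0.67, adjusted p = 0.00221, against 0.62 and adjusted p = 0.227 without it).

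Pdgfb, the chain that binds both receptors, had few reads in LacZ CTRL. It was at 0.402, 0.593, 0.195 and 0.784 CPM in LacZ CTRL, with 11 to 27 reads a library, and at 3.31, 1.88, 5.29 and 5.95 CPM with TGFβ. That was an 8.50-fold rise without overlap (log2 3.09 ± 0.48, adjusted p = 0.000561). In iCre cells TGFβ gave 7.34, 5.14, 5.69 and 12.6 CPM, a 17.4-fold rise (log2 4.12 ± 0.44, adjusted p = 4e-05). TNFα raised it in iCre cells too, to 1.48, 1.52, 3.52 and 4.86 CPM, a 6.45-fold rise (log2 2.69 ± 0.52, adjusted p = 0.0041). In LacZ cells TNFα left it at 0.553 to 1.33 CPM (log2 0.66, adjusted p = 0.373).

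Pdgfa, the other PDGFRα ligand, rose less. In LacZ cells it went from 45.7, 23.6, 43.0 and 37.8 CPM to 59.4, 56.2, 65.4 and 54.4 CPM with TGFβ. The 1.58-fold rise was without overlap (log2 0.66 ± 0.19, adjusted p = 0.018), and missed the threshold without replicate 3 or 4 (adjusted p = 0.0601 and 0.062). In iCre cells it went from 17.2 to 32.2 CPM to 62.3 to 105 CPM, a 3.24-fold rise (log2 1.69 ± 0.21, adjusted p = 0.000113). bFGF gave log2 -0.61 in LacZ cells (adjusted p = 0.222), lower in 4 of 4 numbers, which was called with the block (-0.65, adjusted p = 6.29e-05) and without replicate 2 (-0.57, adjusted p = 0.00595). Of the exon bases of Pdgfa, 26.1% also lie in an antisense gene, 6330403L08Rik, and of those of Fgf2 9.44% lie in the opposite-strand gene Nudt6. The strand setting of the counting is not given in the sources used here, so reads from such partners cannot be told apart. The other 8 genes shared at most 4.55% of their exon bases with any gene.

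Together with Pdgfd, a PDGFRβ ligand from the list of other FGF and PDGF ligands, these genes made a PDGF ligand sum of 31.6 ± 8.68 CPM per kb in LacZ CTRL and 56.9 ± 5.12 with TGFβ. The ranges did not overlap (19.7 to 39.1 and 49.6 to 61.5). Pdgfd was the largest part in CTRL, at 51.9 to 59.8%, and Pdgfc with TGFβ, at 40.5 to 56.0% against 2.71 to 9.01% in CTRL. The share of Pdgfa moved little, from 37.3 to 39.4% to 29.3 to 36.1%. Pdgfd itself, named because it is part of this sum, fell with TGFβ (57.5 to 31.7 CPM, log2 -0.85 ± 0.24, adjusted p = 0.0176) and IL-1β (to 24.7 CPM, -1.21 ± 0.24, adjusted p = 0.00564). In iCre cells with TGFβ the sum was 56.7 to 72.7 CPM per kb, of which Pdgfc was 47.1 to 53.0% and Pdgfd 2.64 to 9.58%.

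Cre was compared with LacZ within each treatment. No cells without loxP sites were given Cre, so loss of TAK1 and Cre itself cannot be told apart. The differences for these genes depended on the ligand and on the block. Without ligand none of the 10 was called by edgeR (background 0.0754%) or DESeq2 (1346 of 15160 genes). At an unadjusted p under 0.05 there were 3, beside 3538 of all 25210 genes. The block called 6 (background 14.5%): Fgf10 (log2 0.68), Pdgfc (0.75), Fgfr1 (0.29) and Pdgfra (0.25) as higher, and Pdgfa (-0.50) and Fgfr2 (-0.41) as lower, with adjusted p between 0.000156 and 0.0125. Fgfr2 and Fgfr1 were the pair whose libraries did not overlap, at 23.6 to 35.62 CPM with iCre against 35.63 to 39.9 CPM, a bare gap, and at 520.0 to 605 CPM against 401 to 509.9 CPM. In cells given bFGF neither edgeR nor DESeq2 called any of the 10, while edgeR called 0 of all genes (0%) and DESeq2 481 of 16033. None of the 10 had an unadjusted p under 0.05, beside 2585 of all 25210 genes. The block called Fgf10 (1.14, adjusted p = 5.95e-07) and Pdgfc (0.52, adjusted p = 0.0359), where the background was 13.9%.

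With TGFβ, 1 of 10 was called (background 8.37%). Pdgfrb was 1.30-fold higher in iCre cells (log2 0.38 ± 0.10, adjusted p = 0.0415), at 1279.85, 1093, 1375 and 1185 CPM against 932, 851, 974 and 948 CPM. The groups did not overlap, but the call was lost without replicate 1, 3 or 4 (adjusted p = 0.136, 0.264 and 0.204) and with a GC offset, where the value was 0.14 (adjusted p = 0.69). Of the 8 mural markers 1 was higher and none lower in iCre cells (2 higher with the block), and their sums overlapped (865 to 2068 against 791 to 1338 CPM). Of the 10 fibroblast markers 3 were lower (6 with the block) and none higher. The part of cell makeup in the Pdgfrb value was not tested. Slopes with GC content were taken on each library's deviation from the mean of all 40 libraries. They were log2 0.197 to 0.339 for each 10 percentage points in the 12 iCre libraries with TNFα, TGFβ or IL-1β. In the other 28 they lay between -0.248 and 0.00268. The longest transcript of Pdgfrb is 54.9% GC. With the block 6 of 10 were called (background 20.8%), and 3 with the block and the GC offset (background 9.38%). Those lost were Pdgfrb, Fgf7 (-0.60 to 0.18) and Fgfr1 (0.26 to 0.00131). The 3 called with both were Fgfr2 lower (-0.86, adjusted p = 0.000103) and Pdgfa (0.31, adjusted p = 0.0424) and Pdgfb (0.59, adjusted p = 0.0329) higher.

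With IL-1β, 1 of 10 was called (background 16.1%). Fgf2 was 1.49-fold lower in iCre cells (log2 -0.58 ± 0.17, adjusted p = 0.0387), at 136, 190.1, 177 and 239 CPM against 317, 291, 234 and 254 CPM. The ranges overlapped, each number was lower, and the call was lost without replicate 1, 2 or 3 (adjusted p = 0.174, 0.0866 and 0.12). With the GC offset it was -0.25 (adjusted p = 0.403), and the longest transcript of Fgf2 is 42.2% GC. The block called 5 genes (background 29.5%). Of these Pdgfc (0.86, adjusted p = 4.64e-05) and Pdgfra (-0.26, adjusted p = 0.0228) were also called with the block and the GC offset (0.75 and -0.27), while Fgf7, at 38.0% GC, turned from -0.33 to 0.43. The others were Fgf2 and Fgfr1 (0.35, adjusted p = 0.00232), neither called with the GC offset (adjusted p = 0.151 and 0.324). Fgf10, at log2 -0.13 (adjusted p = 0.953), turned to 0.86 without replicate 2 and was then called (adjusted p = 0.029), and with the block and the GC offset it was 0.80 (adjusted p = 0.00451).

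With TNFα, 3 of the 10 genes were called, near the share of all genes (27.3%), and 6 with the block (32.2%). Pdgfc was at 10.0, 36.7, 19.7 and 18.7 CPM in iCre cells and at 4.10, 8.39, 4.31 and 6.21 CPM in LacZ cells, 3.76-fold higher (log2 1.91 ± 0.38, adjusted p = 0.00434). Pdgfb was at 1.48, 1.52, 3.52 and 4.86 CPM against 0.576, 0.629, 0.553 and 1.33 CPM, 3.74-fold higher (log2 1.90 ± 0.47, adjusted p = 0.0137). Pdgfra was at 1207, 1483, 1035 and 840.3 CPM against 1693, 2537, 1757 and 1602 CPM, 1.64-fold lower (log2 -0.71 ± 0.21, adjusted p = 0.03). In each of the 3 the groups did not overlap, so 2 ligands were higher and the receptor of Pdgfc lower in the same libraries. Cell type markers also differed between these groups. Of the 8 mural markers 3 were higher and 1 lower in iCre cells, and their sum was 369 to 1252 CPM against 158 to 513 CPM. Of the 10 fibroblast markers 2 were higher and 4 lower, and their sum was 14631 to 22399 CPM against 23388 to 33133 CPM. With the block 2 were higher and 6 lower, the latter with Postn (log2 -2.76, adjusted p = 0.00198) and Tcf21 (-2.14, adjusted p = 0.000967). The part of cell makeup in the Pdgfc, Pdgfb and Pdgfra values was not tested. The Pdgfc call was kept without each replicate, that of Pdgfb was lost without replicate 3 (1.65, adjusted p = 0.111), and that of Pdgfra without replicate 3 or 4 (adjusted p = 0.142 and 0.0851) and in the single fit of 40 libraries (adjusted p = 0.0857). With the block and the GC offset the 3 values were 1.76, 1.58 and -0.70, all called.

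Further genes differed with TNFα once the numbers were compared within themselves. Fgf10 was higher in iCre cells in 4 of 4 numbers, at 3.26, 11.7, 5.61 and 3.31 CPM against 0.271, 8.32, 0.691 and 0.833 CPM. It was not called without the block (1.27, adjusted p = 0.35) but was with it (2.09, adjusted p = 0.00656) and without replicate 2 (2.76, adjusted p = 0.00128). Fgfr2, at 2.497 to 14.5 CPM against 12.4 to 33.6 CPM, had log2 -1.34 (adjusted p = 0.0634, and 0.000476 with the block). Pdgfrb had -0.45 (adjusted p = 0.232, and 0.0177 with the block).

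The difference between the ligand responses of iCre and LacZ cells was tested as an interaction. Without the block none of the 40 tests was called by the main edgeR fit (0 of 10 for each ligand, against backgrounds of 0%, 4.51%, 7.71% and 16.1% for bFGF, TGFβ, IL-1β and TNFα). At an unadjusted p under 0.05 there were 0, 2, 2 and 3 (765, 3839, 4975 and 6923 of all 25210 genes). DESeq2 called 0, 1, 0 and 2 (0 of 25046, 2187 of 14334, 2943 of 16795 and 5162 of 17259 genes). Unblocked edgeR with the filterByExpr filter called 1 with TGFβ (1624 of 16115 genes) and 1 with TNFα (4622 of 16031). In the main fit the nearest were Pdgfra with TNFα (log2 -0.95, adjusted p = 0.0701), Pdgfb with TNFα (2.03, adjusted p = 0.0765) and Pdgfa with TGFβ (1.00, adjusted p = 0.0821). With the block 9 were called, 2 with TGFβ (background 8.04%), 2 with IL-1β (16.9%) and 5 with TNFα (25.1%). The log2 response of Pdgfra to IL-1β and to TNFα was lower in iCre cells (-0.51, adjusted p = 0.0019, and -0.97, adjusted p = 6.51e-05). That of Pdgfa to TGFβ, IL-1β and TNFα was higher in iCre cells (0.97, 0.70 and 0.51, with adjusted p of 0.00303, 0.00456 and 0.0236). Both Pdgfra values and those of Pdgfa with TGFβ and IL-1β were also called with the block and the GC offset and without replicate 2. The Pdgfrb value with TGFβ (0.50, adjusted p = 0.0474) was lost with the GC offset (0.27, adjusted p = 0.48), as was that of Pdgfa with TNFα (adjusted p = 0.102). For Pdgfb, whose rise with TGFβ was 8.50-fold in LacZ and 17.4-fold in iCre cells, the difference was not called with or without the block (adjusted p = 0.265 and 0.531).

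The rest of the pathway was taken from 6 lists, chosen with earlier results of these data known. Of the 14 tested feedback inhibitors of receptor tyrosine kinase signalling, bFGF raised 8 and lowered none in LacZ cells, where 7% of all tested genes were higher and 4.64% lower (median log2 1.28, beside 0.03 over 13090 expressed genes). It raised 5 in iCre cells, where 1.79% of all were higher (median 0.85), but without replicate 1, 3 or 4 the test called 0 of all 25210 genes in that comparison. Spry4, a Sprouty protein that blocks RAS activation, went from 7.29 to 96.9 CPM in LacZ cells (log2 3.76 ± 0.34, adjusted p = 0.000491). Dusp6, an ERK phosphatase, went from 7.10 to 69.8 CPM (3.32 ± 0.44, adjusted p = 0.00215). With TNFα, iCre cells had 9 of the 14 above and 1 below their LacZ level (median 0.82), where 14.8% of all tested genes were higher and 12.6% lower, led by the ERK phosphatase Dusp5 (2.96 to 27.4 CPM, log2 3.23 ± 0.37, adjusted p = 0.000335) and the EGF receptor inhibitor Errfi1 (3.21 ± 0.48, adjusted p = 0.00113). TGFβ raised 2 and lowered 2 in LacZ cells, and raised 1 and lowered 5 in iCre cells. Over all tested genes TGFβ raised 17.5% and lowered 19.3% in LacZ cells and raised 18.6% and lowered 18.8% in iCre cells, which is the background for its counts in the other lists too.

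Of the 12 other FGF and PDGF ligands, TGFβ raised 3 and lowered 3 in LacZ cells, beside 17.5% and 19.3% of all genes. Fgf21, a circulating FGF known as a metabolic hormone, had 2 to 21 reads a library in LacZ CTRL and 359 to 1929 with TGFβ (mean 24.3 CPM, adjusted p = 1.61e-05), and 0 to 4 reads in iCre CTRL and 647 to 1000 with TGFβ (mean 27.5 CPM, adjusted p = 3.93e-07). No fold is given, since its CTRL reads are so few. Fgf1, acidic FGF, rose with bFGF from 3.21 to 17.02 CPM in LacZ cells (2.42 ± 0.27, adjusted p = 0.000971). Fgf18 fell with IL-1β in LacZ cells, from 8.33 to 0.795 CPM (-3.39 ± 0.30, adjusted p = 6.32e-05). That response differed with iCre (interaction 2.76 ± 0.52, adjusted p = 0.00328), where Fgf18 was at 3.57 CPM. Fgf9 rose with TGFβ in LacZ cells, from 0.241 to 1.12 CPM (2.19 ± 0.34, adjusted p = 0.000594), and was lower in iCre than in LacZ cells with TGFβ (1 to 8 reads a library against 28 to 48, adjusted p = 0.00497). Pdgfd was lower in iCre cells with TNFα, at 13.9 against 71.0 CPM (-2.33 ± 0.26, adjusted p = 0.000318), the opposite direction to Pdgfb and Pdgfc.

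Among the 6 other receptors, TGFβ raised Pdgfrl (25.7 to 66.9 CPM) and Fgfrl1 (83.3 to 143 CPM) in LacZ cells and the same pair in iCre cells, and lowered none, beside 17.5% higher and 19.3% lower over all genes in LacZ cells. Of the 18 heparan sulfate co-receptors and binding proteins, TGFβ raised 8 and lowered 4 in LacZ cells and raised 8 and lowered 3 in iCre cells (18.6% and 18.8% of all genes in iCre cells), and the lowered counts were near the background. Ext1, which builds heparan sulfate chains, rose from 177 to 614 CPM (log2 1.82 ± 0.12, adjusted p = 3.73e-06) and Gpc3, a glypican, fell from 4.79 to 1.04 CPM (-2.20 ± 0.49, adjusted p = 0.00544). IL-1β raised 8 and lowered 1 in LacZ cells (11.1% and 9.55% of all genes), with the syndecan Sdc4 going from 114 to 336 CPM (1.57 ± 0.16, adjusted p = 0.000136). Of the 6 tested proteases that process these ligands, TGFβ raised 3 and lowered 2 in both viruses. Plat, the tissue plasminogen activator that cuts latent PDGF-CC, fell from 168 to 53.8 CPM in LacZ cells (-1.62 ± 0.17, adjusted p = 4.11e-05), in the same libraries in which Pdgfc rose. Of the 26 receptor-proximal signalling genes, TGFβ raised 14 and lowered 3 in LacZ cells, led by Map2k1, which encodes the kinase MEK1 (89.6 to 281 CPM, 1.67 ± 0.12, adjusted p = 5.18e-06).

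For each of the 10 genes, the genes most like it were ranked by Pearson's r of log2 CPM over the 10 group means, among 12991 genes at 1 CPM or more. These points share replicate numbers and give a description only. Both TGFβ groups lay far from the others for some genes, and r there largely reflects them. Mean Pdgfc was 137 and 160 CPM in the TGFβ groups against 5.75 to 21.3 CPM elsewhere, and mean Pdgfra 315 and 266 against 1141 to 1897 CPM. Pdgfc was followed most closely by Myo1d (r = 0.996) and Bag2 (0.995), and Pdgfra by Xdh (0.990) and Car13 (0.980). Pdgfrb was closest to Myl9, a smooth muscle myosin light chain (0.974), and Fgfr2 to Bicc1 (0.974) and Ogn, which encodes the matrix protein osteoglycin (0.958). Fgf7 was closest to Pcdhgc3 (0.983) and Pdgfb to Eif4h (0.986). The likest genes of the others were Fgf2 with Chd3 (0.962), Pdgfa with Tex264 (0.967), Fgf10 with Jmjd8 (0.965) and Fgfr1 with Eva1c (0.959). Among the 10 themselves, Pdgfra ran against Pdgfc (r = -0.951) and with Fgf7 (0.944), and Pdgfb ran with Pdgfc (0.897).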

How the data were processed

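RNA of 40 cultures was sequenced as single-end reads. The authors checked reads with FastQC (0.10.1 per the labels), aligned them to mm10 with STAR and deposited raw read counts per Ensembl gene from HTSeq 0.10.0. The strand setting and annotation release are not given in the sources used here, and the library kit is named differently in the labels and the study's methods. Symbols were matched to 52081 of 55414 gene IDs, which held 99.6% of counts. Genes with at least 10 counts over the 40 libraries (25210) were tested with edgeR 4.0.16 in R 4.3.3 (TMM, quasi-likelihood test, Benjamini-Hochberg adjustment), with only the compared groups in each of 17 fits. CPM used TMM-scaled totals, and levels between genes were divided by the union of exons in kb. The fitting functions were also run on simulated counts, and the outcome is not given here. Alternatives were DESeq2 1.42.0, RLE scaling, other filters, a GC offset (5-degree spline), a replicate block, all libraries in 1 fit, longest transcript lengths and leaving out each replicate number.

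Titles give the same replicate numbers in every group. Deviations from group means correlated in 52 of 52 compared pairs of the same number (r = 0.300 to 0.857, 13090 genes), so the numbers were taken to pair libraries. Over all pairs of libraries from different groups the mean r was 0.546 for the same number and -0.155 for other numbers. Deviations within a group cancel out, so a positive mean for the same number makes the other negative. The members and gene lists were chosen with earlier results of these data known. The text names all 10 genes, Map3k7, for each pathway list and comparison at most 2 called genes with the largest change at 1 CPM or more, and the genes likest to each member. Pdgfd, the fibroblast and mural markers named and the choice of promoters fall outside that rule. Of the 10 genes, counting error limits Pdgfb and Fgf10 most.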

Additional observations from a re-analysis of the deposited data

Results flagged for a closer look

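In 26 of 100 sets of 4 libraries (10 genes in 10 groups) the highest or lowest library stood off from the others by Dixon's criterion, where chance gives about 1 in 20. Of these, 23 were libraries numbered 2. Fgf10 stood off as highest in replicate 2 at 27.6 CPM (LacZ CTRL), 27.7 (LacZ bFGF), 3.83 (LacZ TGFβ), 27.9 (LacZ IL-1β), 8.32 (LacZ TNFα), 45.8 (iCre CTRL), 53.0 (iCre bFGF), 3.44 (iCre TGFβ) and 19.5 CPM (iCre IL-1β). Pdgfra did so at 1884, 1976, 2483 and 2537 CPM in LacZ CTRL, bFGF, IL-1β and TNFα and at 1985, 2109 and 525 CPM in iCre CTRL, bFGF and TGFβ. Fgf7 did so at 41.7 and 124.6 CPM in LacZ TGFβ and TNFα and at 109.8, 106 and 37.8 CPM in iCre CTRL, bFGF and TGFβ. Pdgfc in LacZ CTRL was highest in replicate 2 at 9.05 CPM, and Pdgfa in iCre bFGF was lowest there at 11.4 CPM. The other 3 were Pdgfrb in replicate 1 of LacZ CTRL (635 CPM) and LacZ bFGF (507 CPM), and Pdgfb in replicate 4 of LacZ TNFα (1.33 CPM).

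The response to a ligand differed between iCre and LacZ cells in 9 of 40 tests of the interaction by edgeR with the replicate block. Without the block the main edgeR fit called none over all libraries, edgeR with filterByExpr 1 with TGFβ and 1 with TNFα, and DESeq2 3. With the block they were, for TGFβ, Pdgfrb (log2 0.50, lost with a GC offset, 0.27) and Pdgfa (0.97). For IL-1β they were Pdgfa (0.70) and Pdgfra (-0.51). For TNFα they were Pdgfb (2.04), Fgf10 (1.37), Pdgfa (0.51, lost with a GC offset, 0.38), Pdgfc (1.07) and Pdgfra (-0.97).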

How the results depend on the processing

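Ligands against CTRL gave 15 of 40 calls in LacZ cells, 27 with the replicate block, 28 with the block and a GC offset, and 10 to 23 when a replicate number was left out (23 without replicate 2). With the block the called share of all genes also rose, from 11.6% to 27.3% with bFGF and 36.9% to 42% with TGFβ. It rose from 20.7% to 33.5% with IL-1β and 21.3% to 35.5% with TNFα. In iCre cells the 12 of 40 calls became 31 with the block and 26 with the block and GC offset, and 9 to 18 with a number left out. There the block took the share of all genes from 2.42% to 16.7% with bFGF and 37.4% to 41.5% with TGFβ. It went from 16.3% to 33.8% with IL-1β and 27% to 36.1% with TNFα. For iCre against LacZ the 5 of 50 calls became 10 with DESeq2, 25 with the block, 3 with the GC offset and 22 with both, and 1 to 17 with a number left out (1 without replicate 3, 3 without 4 and 17 without 2). Calls over all genes moved too. With TGFβ they went from 2111 to 3788 with DESeq2, 5238 with the block, 253 with the GC offset and 2341 with both. In CTRL they went from 19 to 1346, 3655, 22 and 3758, and with TNFα from 6894 to 8032, 8121, 5705 and 7120. The 0 of 40 interactions became 3 with DESeq2, 2 with filterByExpr, 9 with the block and 10 with block and GC offset, and 0 to 8 with a number left out (8 without replicate 2). Over all genes the TNFα interactions went from 4054 to 5162, 4622, 6333 and 5266 under the first 4 of these, and those of TGFβ from 1138 to 2187, 1624, 2027 and 658. The block kept all 32 calls of single genes and added 60, so the paired fit ended no call. RLE scaling changed none, and the single fit of 40 libraries lost 7 (in LacZ cells Fgfr2 with bFGF, IL-1β and TNFα and Fgf2 with TGFβ, and for iCre against LacZ Pdgfra with TNFα, Pdgfrb with TGFβ and Fgf2 with IL-1β) and added 8. Reversed values were, with the block and GC offset, Fgf7 for iCre against LacZ with IL-1β (0.43) and TNFα (0.73), its TNFα interaction (0.65), and Fgf10 for iCre against LacZ with IL-1β (0.80), which ran from -0.24 to 0.86 with a number left out (0.86 without replicate 2). The cause was not tested.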
